A study of Mus musculus with 8 samples.

Results

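The p53 pathway and growth arrest genes examined here were 10 genes taken by symbol from the deposited expression table: Trp53, Mdm2, Cdkn1a, Cdkn2a, Ccng1, Phlda3, Zmat3, Trp53inp1, Sesn2 and Eda2r. All 10 were found among the 23997 genes of the table, and 9 passed the filter on low values used for testing. They were compared in RNA-seq of whole bone marrow from C57BL/6 mice with leukemia. Marrow came from donors given 5-fluorouracil. It was grown in IL3, IL6 and SCF, transduced and put into lethally irradiated recipients, whose RNA was taken once they had succumbed to the disease. The marrow carried AML1-ETO with Meis2 (AE+Meis2, n = 3, median latency 171 days), AML1-ETO9a with Meis2 (AE9a+Meis2, n = 3, 102 days) or AML1-ETO9a alone (AE9a, n = 2, 138 days). AML1-ETO is the fusion of RUNX1 with the corepressor RUNX1T1, AML1-ETO9a is a shorter splice form of it, and Meis2 is a homeobox transcription factor. Every group carried a fusion gene, and no library of healthy marrow was used here. The labels name no sort of the transduced cells and no separate cultures, donors or batches, so each p rests on how far single libraries differ, which may be technical in part. In whole marrow, fewer cells of a type and less RNA per cell cannot be told apart.

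p53, encoded by Trp53, is held at a low level by the ubiquitin ligase Mdm2, and DNA damage or an activated oncogene frees it to switch on its target genes. Mdm2 is itself such a target, which closes a feedback loop. Among the other targets, Cdkn1a (p21) blocks cyclin-dependent kinases and stops the cell cycle. The Cdkn2a locus encodes a separate pair of brakes, p16Ink4a, which inhibits the kinases CDK4 and CDK6, and p19Arf, which restrains Mdm2. p53 is controlled mostly at the level of the protein, so Trp53 RNA says little about p53 activity by itself.

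p53 binds DNA through paired half-sites, and the upstream windows below are shown because they hold exact matches to the p53 half-site consensus, printed in capitals. The 250 bases upstream of the start sites of each gene in RefSeq (GRCm38.p6) were searched, and 8 of the 10 members matched an entry of the table. Zmat3 and Trp53inp1 were not matched. The consensus reads the same on both strands. These 8 members had 10 listed starts, since Cdkn1a and Cdkn2a had 2 each. Of those 10 windows 4 held at least 1 half-site, each of a different member, while 7.13% of the 32851 windows of the same length in the table did. The windows are chr17:29090881-29090962 on the plus strand for Cdkn1a, chr11:40755437-40755496 on the minus strand for Ccng1, chr10:117710910-117710969 on the minus strand for Mdm2 and chr11:69580259-69580318 on the plus strand for Trp53.
Cdkn1a: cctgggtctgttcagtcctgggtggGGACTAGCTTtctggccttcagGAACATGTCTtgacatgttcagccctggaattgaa
Ccng1: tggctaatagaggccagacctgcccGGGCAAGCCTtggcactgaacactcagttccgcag
Mdm2: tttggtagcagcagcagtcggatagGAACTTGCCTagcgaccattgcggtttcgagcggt
Trp53: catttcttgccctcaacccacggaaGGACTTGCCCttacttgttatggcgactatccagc
The Cdkn1a window lies before the first of its 2 listed starts and holds 2 half-sites, beginning 73 and 51 bases before that start. The half-site begins 185 bases before the start of Ccng1, 186 before that of Mdm2 and 75 before that of Trp53. A pair of exact half-sites separated by 0 to 13 bases was present in 0.0639% of all windows. A match of letters is a description of the sequence and does not show binding, and the absence of a match in a window says nothing about p53.

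The libraries differed in ways that touch the genes below. Meis2 was at 13.1, 38.2 and 81.5 FPKM in AE+Meis2, at 621, 604 and 1277 FPKM in AE9a+Meis2, while AE9a had 6.99 and 13.2 FPKM. Runx1t1, which encodes the ETO part of the fusion, ranged over 21.6, 223 and 218 FPKM for AE+Meis2 and lay between 10.3 and 26.8 FPKM in the other 5 libraries. The library labelled AE+Meis2 replicate 1 thus goes against its label for both transduced genes, and the comparisons of Cdkn1a and Cdkn2a, the likeness to Cdkn1a and the wider pathway are given with and without it. AE9a+Meis2 replicate 3 and AE9a replicate 1 had values above 0 for 84.1% and 72.1% of 1543 genes of receptor, keratin-associated and defensin families that marrow does not use, called silent genes below, where the other 6 libraries had 3.37% to 6.61%. For the Y-linked Eif2s3y the AE+Meis2 libraries had 158, 176 and 7.06 FPKM, and no other library exceeded 0.574 FPKM. Of 10 markers of marrow blood cells, 9 were in the table, and these were at 1 FPKM or more in every library. Only relative depth can be estimated, from the spacing of low values, and roughly. It ran from 12.1% (AE9a replicate 1) to 65.5% (AE9a+Meis2 replicate 1) of that of AE9a+Meis2 replicate 2. The lowest estimate is that of a library with values in silent genes. Each estimate rested on only 3.58% to 9.21% of the genes with low values.

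FPKM is scaled to the length of the transcript and to the mapped fragments of the library, so levels can be compared between genes. By their median over the 8 libraries the members fell into a high set and a low set. Trp53 (46.2 FPKM), Cdkn1a (44.3), Trp53inp1 (39.2), Ccng1 (32.6) and Mdm2 (27.4) made up the first, and no library had any of them below 13.5 FPKM. Sesn2 (5.79 FPKM), Phlda3 (5.21), Cdkn2a (3.57), Zmat3 (2.74) and Eda2r (0.155) made up the second, and no library had any of them above 10.1 FPKM. Within each set the ranges over libraries overlapped, except that Eda2r, at no more than 0.516 FPKM, overlapped with Cdkn2a alone.

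**Figure D1:**
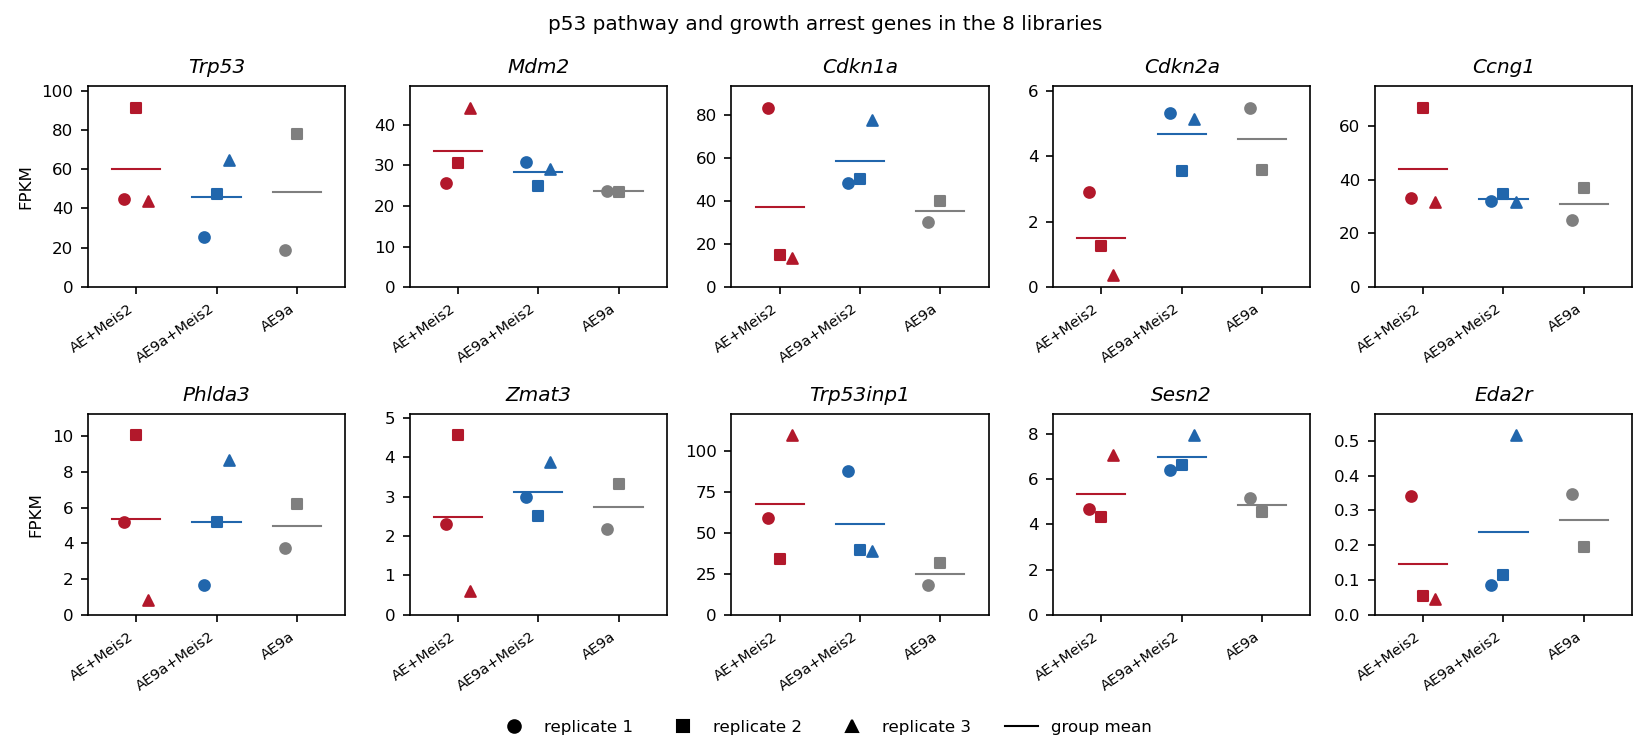
FPKM of the 10 genes (vertical axes, linear from 0) in the libraries of AE+Meis2, AE9a+Meis2 and AE9a, with symbols for the replicate number and a line at the group mean. Cdkn2a is the gene whose 3 AE+Meis2 libraries all lie below the other 5 libraries; AE+Meis2 replicate 1 stands far above replicates 2 and 3 for Cdkn1a.

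No member changed past the threshold in any comparison. Differences were tested with limma on log2(FPKM + 1) over all 12565 genes that reached 1 FPKM in at least 2 libraries, with Benjamini-Hochberg adjustment and a threshold of 0.05, and all differences below are on this scale, on which changes of low genes come out too small. The value after ± is the standard error. In AE+Meis2 against AE9a+Meis2, 0 of 9 members passed, where 0.0398% of all genes did. Cdkn2a alone had an unadjusted p under 0.05, on the lower side, where 7.15% of all genes had one (3.1% higher and 4.05% lower). In AE+Meis2 against AE9a, 0 of 9 passed (0.0318% of all genes), and again Cdkn2a alone had an unadjusted p under 0.05 (5.98% of all genes, 2.95% higher and 3.03% lower). In AE9a+Meis2 against AE9a, 0 of 9 passed (0.0478%) and 0 of 9 had an unadjusted p under 0.05 (3.06%, 1.93% higher and 1.13% lower). The lowest adjusted p of a member was 0.60, 0.74 and 1 in the 3 comparisons. The comparisons share libraries, so the values of a gene in them are not independent of each other.

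The directions were mixed in both comparisons of AE+Meis2. Against AE9a+Meis2, 4 members had a positive and 5 a negative difference, with a median of -0.11 beside 0.04 over all genes, 54.9% of which were positive. Against AE9a, 5 were positive and 4 negative, with a median of 0.09 beside 0.06 over all genes, 55.9% of which were positive. In AE9a+Meis2 against AE9a, 8 of 9 were positive, with a median of 0.15 beside -0.0011 over all genes, 49.8% of which were positive. Libraries of the 2 groups did not overlap for 1 of 9 members in AE+Meis2 against AE9a+Meis2 (13.5% of all genes), for 3 of 9 in AE+Meis2 against AE9a (18.6%) and for 4 of 9 in AE9a+Meis2 against AE9a (23.8%).

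**Figure D2:**
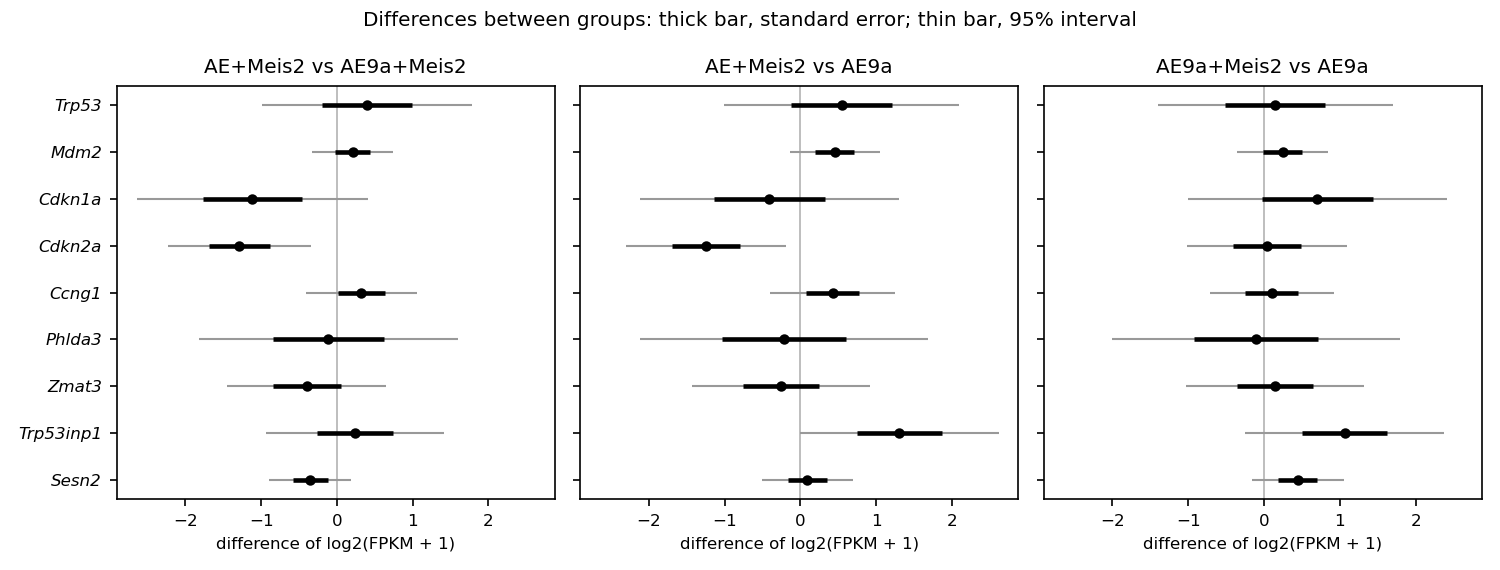
Differences of log2(FPKM + 1) for the 9 tested members in the 3 comparisons (horizontal axes), the group named first minus the group named second; points are limma estimates, thick bars standard errors and thin bars 95% intervals. The intervals of Cdkn2a lie below 0 in both comparisons of AE+Meis2, before adjustment for the number of genes tested.

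Trp53 itself (chromosome 11, 69580359 to 69591873; here and below positions are on GRCm38, the mm10 build) was spread widely within groups, with an SD of 0.85 on the log2 scale, larger than that of 86.5% of the genes tested. It was at 45.1, 91.4 and 43.7 FPKM in AE+Meis2, at 25.2, 47.4 and 64.9 FPKM in AE9a+Meis2, with 18.8 and 78.0 FPKM for AE9a alone. The groups overlapped throughout, and the 2 AE9a libraries held the lowest and the second highest level. The log2 difference was 0.40 ± 0.59 in AE+Meis2 against AE9a+Meis2, 0.54 ± 0.66 in AE+Meis2 against AE9a and 0.15 ± 0.66 in AE9a+Meis2 against AE9a. Without AE9a replicate 1, which also had values in silent genes, the last 2 became -0.46 and -0.85, so their direction rests on that library. The first was 0.026 without AE9a+Meis2 replicate 1, 0.054 without AE+Meis2 replicate 2 and 0.69 without AE9a+Meis2 replicate 3.

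Mdm2, the ligase that restrains p53 (chromosome 10, 117688875 to 117710758), was among the steadiest members. It was at 25.7, 30.5 and 44.2 FPKM in AE+Meis2, at 30.7, 24.9 and 29.1 FPKM in AE9a+Meis2, while AE9a had 23.8 and 23.4 FPKM. Both AE9a libraries lay below the other 6. The log2 difference was 0.21 ± 0.23 in AE+Meis2 against AE9a+Meis2, 0.45 ± 0.25 in AE+Meis2 against AE9a (95% interval -0.14 to 1.05) and 0.25 ± 0.25 in AE9a+Meis2 against AE9a (-0.35 to 0.84). Without AE+Meis2 replicate 3 the first was -0.0074 and the second 0.24. Its spread within groups, an SD of 0.26 on the log2 scale, was larger than that of 28.5% of the genes tested.

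Cdkn2a (chromosome 4, 89274471 to 89294653) stood lowest in AE+Meis2. It was at 2.91, 1.26 and 0.363 FPKM there, at 5.32, 3.55 and 5.13 FPKM in AE9a+Meis2, with 5.48 and 3.59 FPKM for AE9a alone. All 3 AE+Meis2 libraries lay below all 5 libraries with AE9a, while AE9a+Meis2 and AE9a covered nearly the same range. The log2 difference was -1.29 ± 0.40 in AE+Meis2 against AE9a+Meis2 (adjusted p = 0.60 by limma) and -1.25 ± 0.45 in AE+Meis2 against AE9a (adjusted p = 0.74 by limma). By unadjusted p it took place 298 and place 450 among the 12565 genes. The difference between AE9a+Meis2 and AE9a was 0.04 ± 0.45, with a 95% interval of -1.02 to 1.10. Leaving out the library labelled AE+Meis2 replicate 1, the first 2 differences were -1.67 ± 0.34 and -1.63 ± 0.38 (adjusted p = 0.28 and 0.26 by limma), and without replicate 3 they were -0.91 ± 0.34 and -0.87 ± 0.37. The annotation lists 2 coding transcripts at the locus, and the single row of the table does not separate p16Ink4a from p19Arf. The neighbouring inhibitor gene Cdkn2b (p15Ink4b) was at 0.992, 0.0875 and 0.0323 FPKM in AE+Meis2, at 0.452, 1.06 and 1.15 FPKM in AE9a+Meis2, while AE9a had 0.321 and 0.510 FPKM. AE+Meis2 replicates 2 and 3 were lowest for both genes, and replicate 1 was not low for Cdkn2b. The Y-linked Eif2s3y was higher in all 3 AE+Meis2 libraries than in the other 5, the same split as for Cdkn2a. Eif2s3y was at 7.06 FPKM in AE+Meis2 replicate 3, the library with the lowest Cdkn2a level. The part of sex in the Cdkn2a values cannot be told apart from that of the group and was not tested. The same holds for other genes below with this split, such as Plk2, Gadd45a, Pidd1 and Cdkn1b. The share of all genes with this split was not computed.

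Cdkn1a (chromosome 17, 29090976 to 29100727) split the AE+Meis2 group. It was at 83.4, 15.0 and 13.5 FPKM in AE+Meis2, at 48.4, 50.2 and 77.6 FPKM in AE9a+Meis2, with 30.2 and 40.2 FPKM for AE9a alone. The highest and the 2 lowest values of all 8 libraries therefore fell within 1 group. AE9a+Meis2 and AE9a did not overlap. The log2 difference was -1.12 ± 0.65 in AE+Meis2 against AE9a+Meis2, -0.41 ± 0.73 in AE+Meis2 against AE9a and 0.70 ± 0.73 in AE9a+Meis2 against AE9a (adjusted p = 0.76, 0.97 and 1 by limma). Leaving out the library labelled AE+Meis2 replicate 1, the first 2 were -1.94 ± 0.27 (adjusted p = 0.16 by limma) and -1.23 ± 0.30 (adjusted p = 0.30 by limma). Both of the remaining AE+Meis2 libraries were then below all 5 libraries with AE9a, still without passing the threshold. Without replicate 3 the difference was -0.67 from AE9a+Meis2 and 0.034 from AE9a, and without replicate 2 it was -0.74 and -0.033. An annotated gene on the other strand overlaps Cdkn1a and was not used here.

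The genes whose levels were most like those of Cdkn1a were sought among 9045 tested genes with a mean of at least 5 FPKM, by Pearson's r of log2(FPKM + 1) over the 8 libraries. They were Lrp12, a member of the LDL receptor family (r = 0.97), Slc6a9, a glycine transporter (0.97), and Alas2, the first enzyme of heme synthesis in red cell precursors (0.95). Spearman's rho was 0.98, 0.98 and 0.83. These genes were picked for their likeness, so no p is given, and the libraries share their depth and makeup across all genes. Lrp12 was at 11.3, 1.90 and 2.76 FPKM in AE+Meis2, at 6.91, 9.16 and 9.43 FPKM in AE9a+Meis2, while AE9a had 4.65 and 6.61 FPKM. Alas2 was at 166, 9.42 and 10.2 FPKM in AE+Meis2, at 66.2, 77.7 and 99.6 FPKM in AE9a+Meis2, while AE9a had 29.7 and 110 FPKM. AE+Meis2 replicate 1 was highest, and replicates 2 and 3 were lowest, for Cdkn1a, Lrp12, Slc6a9 and Alas2 alike. Without those 2 lowest libraries r was 0.94, 0.90 and 0.80 over the other 6. Without the library labelled AE+Meis2 replicate 1, an alternative chosen after seeing the data, r was 0.96, 0.96 and 0.94 and rho 0.96, 0.96 and 0.75 over the other 7.

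Alas2 belongs to a list of 8 erythroid markers, all of them at 1 FPKM or more in every library. Their summed level was 4943, 2011 and 529.5 FPKM in AE+Meis2, 1111, 3157 and 2824 FPKM in AE9a+Meis2, with 1399 and 2443 FPKM for AE9a alone. By r with Cdkn1a the globin genes Hbb-bs, Hbb-b1 and Hba-a1 took places 60, 221 and 259 among the 9045 genes, the erythroid transcription factor Klf1 place 754 and the transferrin receptor Tfrc place 5406. The sum was highest in the library with the most Cdkn1a and lowest in the library with the least, and was not low in AE+Meis2 replicate 2. The part of red cell precursors in the Cdkn1a values was not tested.

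**Figure D3:**
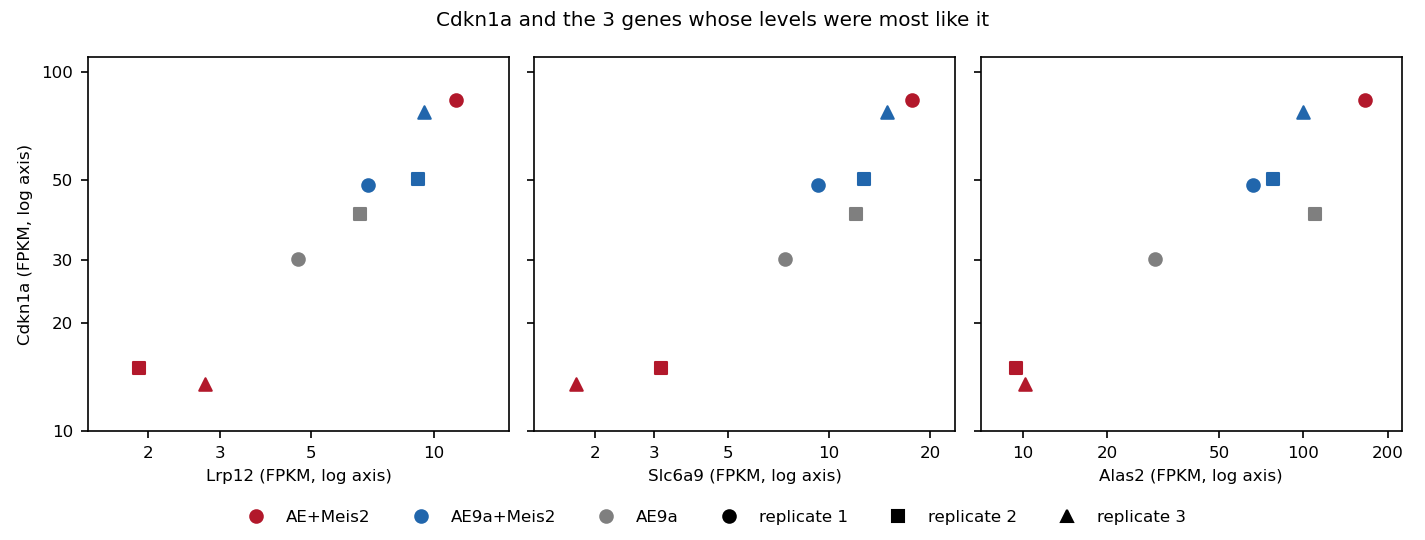
Cdkn1a (vertical axis, FPKM on a log axis) against Lrp12, Slc6a9 and Alas2 (horizontal axes, FPKM on log axes) in the 8 libraries, colored by group with symbols for the replicate number. AE+Meis2 replicate 1 sits at the upper right of each panel and AE+Meis2 replicates 2 and 3 at the lower left, apart from the other libraries.

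Ccng1 encodes cyclin G1, an early p53 target that takes part in the feedback on Mdm2 (chromosome 11, 40748552 to 40755311). It was at 33.1, 66.9 and 31.7 FPKM in AE+Meis2, at 32.0, 34.8 and 31.8 FPKM in AE9a+Meis2, while AE9a had 25.1 and 37.1 FPKM. Apart from AE+Meis2 replicate 2 the libraries lay close together. The log2 difference of AE+Meis2 was 0.32 ± 0.31 from AE9a+Meis2 and 0.42 ± 0.35 from AE9a. Without replicate 2 the first was -0.019 and the second 0.082. The second was 0.15 without AE9a replicate 1 and 0.69 without AE9a replicate 2. In AE9a+Meis2 against AE9a it was 0.10 ± 0.35, with a 95% interval of -0.72 to 0.92.

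Phlda3, a small lipid-binding protein that holds back the kinase AKT (chromosome 1, 135766119 to 135769136), had the widest spread within groups. It was at 5.21, 10.1 and 0.853 FPKM in AE+Meis2, at 1.67, 5.22 and 8.68 FPKM in AE9a+Meis2, with 3.73 and 6.23 FPKM for AE9a alone. The highest and the lowest library were both AE+Meis2, 11.8-fold apart. Its SD within groups was 1.04 on the log2 scale, larger than that of 91.4% of the genes tested. The differences were smaller than that SD, at -0.11 ± 0.73 in AE+Meis2 against AE9a+Meis2, -0.22 ± 0.81 in AE+Meis2 against AE9a and -0.11 ± 0.81 in AE9a+Meis2 against AE9a.

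Zmat3, a zinc finger protein that binds RNA (chromosome 3, 32334792 to 32366014), had the same extremes as Phlda3. It was at 2.31, 4.56 and 0.614 FPKM in AE+Meis2, at 2.99, 2.502 and 3.88 FPKM in AE9a+Meis2, while AE9a had 2.17 and 3.32 FPKM. AE+Meis2 replicate 2 was highest and replicate 3 lowest, and the groups overlapped. The differences were -0.40 ± 0.45, -0.26 ± 0.50 and 0.14 ± 0.50 in the same order of comparisons. Without AE+Meis2 replicate 3 the first 2 were 0.071 and 0.21.

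Trp53inp1, a stress-induced nuclear protein that promotes p53-dependent death and autophagy (chromosome 4, 11156431 to 11174379), had the lowest values in AE9a. It was at 59.2, 34.2 and 109 FPKM in AE+Meis2, at 87.5, 39.7 and 38.6 FPKM in AE9a+Meis2, with 18.1 and 31.7 FPKM for AE9a alone. Both AE9a libraries lay below the 6 libraries with Meis2, the upper of them by a small margin. The log2 difference was 1.30 ± 0.56 in AE+Meis2 against AE9a (adjusted p = 0.83 by limma) and 1.06 ± 0.56 in AE9a+Meis2 against AE9a (adjusted p = 1 by limma). Between AE+Meis2 and AE9a+Meis2 it was 0.24 ± 0.50, with a 95% interval of -0.93 to 1.41. Without AE9a replicate 1 the differences from AE9a were 0.92 and 0.68, and without AE9a+Meis2 replicate 1 the second was also 0.68.

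Markers of stress and tissue handling, a list of 9 immediate early and heat shock genes such as Fos and Atf3, also differed between libraries; 7 or 8 of the 9 reached 1 FPKM in each. Their summed level was 1002, 124.5 and 2401 FPKM in AE+Meis2, 1617, 958 and 1556 FPKM in AE9a+Meis2, while AE9a had 92.0 and 306 FPKM. The highest sums came from AE+Meis2 replicate 3 and AE9a+Meis2 replicate 1, which also had the most Trp53inp1. AE+Meis2 replicate 2 and AE9a replicate 1 had the lowest sums, with the third lowest and the lowest Trp53inp1 level. The part of handling in the Trp53inp1 values was not tested.

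Sesn2 encodes sestrin 2, a leucine sensor that restrains the growth kinase mTORC1 (chromosome 4, 132492032 to 132510501). It was at 4.66, 4.32 and 7.07 FPKM in AE+Meis2, at 6.41, 6.62 and 7.94 FPKM in AE9a+Meis2, with 5.17 and 4.55 FPKM for AE9a alone. AE9a+Meis2 lay above AE9a without overlap. The log2 difference was -0.35 ± 0.23 in AE+Meis2 against AE9a+Meis2, 0.09 ± 0.26 in AE+Meis2 against AE9a and 0.44 ± 0.26 in AE9a+Meis2 against AE9a (adjusted p = 1 by limma). Without AE+Meis2 replicate 3 the first was -0.54. The annotated gene Gm12981 overlaps Sesn2 on the same strand and was not used here, so reads of either may be counted in the Sesn2 value.

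Eda2r, the receptor for the EDA-A2 ligand (chromosome X, 97333840 to 97377216), was below 1 FPKM in all libraries and was not tested. It was at 0.341, 0.0531 and 0.0458 FPKM in AE+Meis2, at 0.0854, 0.114 and 0.516 FPKM in AE9a+Meis2, while AE9a had 0.349 and 0.195 FPKM. The highest levels were those of AE9a+Meis2 replicate 3 and AE9a replicate 1, which had values in silent genes, closely followed by AE+Meis2 replicate 1.

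Across members, a few libraries held most of the extremes, but the share over all genes was not computed. Over all genes tested, AE+Meis2 replicates 2 and 3 were the least alike of all pairs (r = 0.75). By the rough estimate given above, relative depth was lowest in AE9a replicate 1 (12.1%) and AE+Meis2 replicate 2 (14.9%). AE+Meis2 replicate 3 had the lowest level of 5 members (Cdkn1a, Cdkn2a, Phlda3, Zmat3 and Eda2r) and the highest of 2 (Mdm2 and Trp53inp1). AE+Meis2 replicate 2 had the highest level of 4 (Trp53, Ccng1, Phlda3 and Zmat3). AE9a replicate 1 had the lowest level of 3 (Trp53, Ccng1 and Trp53inp1). The level of Trp53 was 43.7 FPKM in AE+Meis2 replicate 3, near its median. Of known p53 targets, Cdkn1a, Phlda3 and Zmat3 were lowest in that library, while Mdm2 and Trp53inp1 were highest there. Eda2r was lowest there too, but it was below 1 FPKM in all libraries. The ratio of Cdkn1a to Trp53 FPKM was 1.85, 0.164 and 0.310 in AE+Meis2, 1.92, 1.06 and 1.19 in AE9a+Meis2 and 1.61 and 0.515 in AE9a. Of the 9 tested members, 7 had a spread within groups above 0.38 on the log2 scale, the median of all genes tested.

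**Figure D4:**
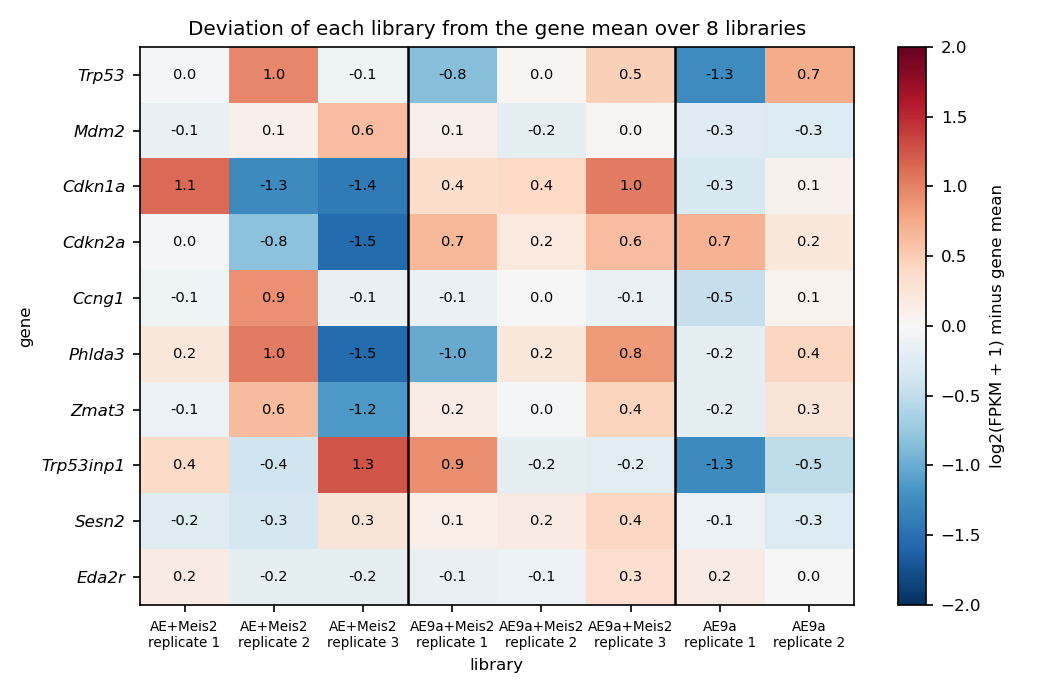
Deviation of each library (columns, grouped as AE+Meis2, AE9a+Meis2 and AE9a) from the mean of each gene (rows) over 8 libraries, in log2(FPKM + 1). AE+Meis2 replicate 3 is low for Cdkn1a, Cdkn2a, Phlda3 and Zmat3 and high for Trp53inp1 and Mdm2, while AE+Meis2 replicate 2 is high for Trp53, Ccng1, Phlda3 and Zmat3.

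A wider set of p53 regulators, p53 targets and cell cycle genes gave no call either. Of 85 such genes in the table, 79 were tested. None passed limma over all genes in AE+Meis2 against AE9a+Meis2 (lowest adjusted p = 0.29; 6 of 79 at an unadjusted p under 0.05, 3 higher and 3 lower, where 7.15% of all genes had such a p). None passed in AE+Meis2 against AE9a (lowest adjusted p = 0.34; 7 of 79, 6 higher and 1 lower, beside 5.98%), or in AE9a+Meis2 against AE9a (lowest adjusted p = 0.77; 4 of 79, 2 higher and 2 lower, beside 3.06%). The median difference was 0.11, 0.13 and 0.03 in the 3 comparisons, beside 0.04, 0.06 and -0.0011 over all genes. Without the library labelled AE+Meis2 replicate 1, chosen after seeing the data, 0 of 78 passed in either comparison of AE+Meis2 (lowest adjusted p = 0.24 and 0.23 by limma). In that fit 8 and 1 of all 12439 genes tested passed.

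Among 16 tested targets with a role in arrest and repair, 0 passed the threshold. In AE+Meis2 13 were above AE9a+Meis2 and 12 above AE9a, where 54.9% and 55.9% of all genes were. Plk2, a polo-like kinase, had the smallest p of the list in both comparisons of AE+Meis2. Only AE+Meis2 libraries reached 1 FPKM of it, so it was tested only because it was high there. Its p and its lack of overlap therefore give no separate support. It was at 1.93, 2.45 and 3.11 FPKM in AE+Meis2, at 0.413, 0.181 and 0.593 FPKM in AE9a+Meis2, with 0.249 and 0.504 FPKM for AE9a alone. The 3 AE+Meis2 libraries stood above the other 5, with a log2 difference of 1.32 ± 0.25 from AE9a+Meis2 (adjusted p = 0.29 by limma) and 1.34 ± 0.28 from AE9a (adjusted p = 0.34 by limma). Gadd45a, a growth arrest and DNA damage protein, was at 39.5, 35.4 and 70.3 FPKM in AE+Meis2, at 16.5, 17.3 and 27.6 FPKM in AE9a+Meis2, while AE9a had 5.46 and 25.6 FPKM, again with no overlap between AE+Meis2 and the rest. Its differences were 1.17 ± 0.54 and 1.85 ± 0.60 (adjusted p = 0.72 and 0.70 by limma). The related kinase Plk3 differed by 0.97 ± 0.52 and 1.74 ± 0.58. Plk2 and Gadd45a were at their highest in the group where Cdkn2a, and in 2 of 3 libraries Cdkn1a, were at their lowest. Both were named for their small p within the list, and none of these differences passed the threshold.

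Of 15 tested targets that promote cell death, 0 passed the threshold. In AE+Meis2 3 were above and 12 below AE9a+Meis2, with a median of -0.16, where 54.9% of all genes were above. In AE9a+Meis2 12 were above and 3 below AE9a, with a median of 0.08, where 49.8% of all genes were above. Perp, described further below, had the smallest p of the list in both comparisons of AE+Meis2 and was higher there. Its differences were 1.58 ± 0.77 and 1.61 ± 0.87 (adjusted p = 0.73 and 0.94 by limma), and the groups overlapped. Only AE+Meis2 libraries reached 1 FPKM of Perp, so its p gives no separate support. The adaptor Pidd1 was lower in all 3 AE+Meis2 libraries than in the other 5, with differences of -0.45 ± 0.22 and -0.46 ± 0.25 (adjusted p = 0.73 and 0.95 by limma). The death receptor Fas was at 4.57, 1.38 and 22.4 FPKM in AE+Meis2, at 8.10, 3.58 and 9.69 FPKM in AE9a+Meis2, with 1.505 and 2.46 FPKM for AE9a alone. AE9a+Meis2 stood above AE9a for Fas without overlap, by 1.38 ± 0.88 (adjusted p = 1 by limma). The stress and handling markers given above were also higher in every AE9a+Meis2 library than in AE9a, with sums of 958 to 1617 FPKM in AE9a+Meis2 and 92.0 and 306 FPKM in AE9a. AE+Meis2 replicate 3 had the most of both Fas and these markers. The part of handling in the Fas values was not tested.

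Among 15 tested targets in metabolism and other roles, 0 passed the threshold. Pltp, a phospholipid transfer protein, was at 18.7, 23.8 and 14.9 FPKM in AE+Meis2, at 4.39, 1.88 and 6.79 FPKM in AE9a+Meis2, while AE9a had 15.2 and 24.8 FPKM. It was lowest in AE9a+Meis2, by a log2 difference of 2.00 ± 0.40 for AE+Meis2 against AE9a+Meis2 and -2.05 ± 0.45 for AE9a+Meis2 against AE9a (adjusted p = 0.31 and 0.77 by limma). The costimulatory ligand Cd80 went the other way, at -0.84 ± 0.30 and 1.31 ± 0.34 in the same comparisons (adjusted p = 0.65 and 1 by limma), at levels of at most 3.38 FPKM.

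Macrophage markers differed between the same groups as Pltp in part. Of 7 such markers in the table, 5 to 7 reached 1 FPKM in each library and none was at 0. Their summed level was 298, 169 and 90.0 FPKM in AE+Meis2, 182, 45.8 and 69.6 FPKM in AE9a+Meis2, while AE9a had 119 and 159 FPKM, so the groups overlapped. The complement gene C1qb was at 143, 85.1 and 15.2 FPKM in AE+Meis2, at 13.7, 8.40 and 12.3 FPKM in AE9a+Meis2, with 31.5 and 62.8 FPKM for AE9a alone. Spic, a transcription factor of iron-recycling macrophages, was at 6.37, 1.66 and 1.37 FPKM in AE+Meis2, at 0.505, 0.519 and 0.917 FPKM in AE9a+Meis2, while AE9a had 5.85 and 13.6 FPKM. C1qb and Spic were lowest in the 3 AE9a+Meis2 libraries, as Pltp was, but the other macrophage markers did not share this split. Cd163, Mertk and Emr1 were highest in AE9a+Meis2 replicate 1, at 64.5, 37.2 and 48.6 FPKM. C1qa was lower in AE+Meis2 replicate 3 (9.77 FPKM) than in AE9a+Meis2 replicate 1 (11.2 FPKM). Vcam1 was lower in AE+Meis2 replicate 2 (4.59 FPKM) than in AE9a+Meis2 replicate 1 (6.44 FPKM). The part of macrophages in the Pltp values was not tested.

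Other inhibitors of the cell cycle were also compared. Of 7 tested CDK inhibitors and pocket proteins, 0 passed the threshold. Positive differences were found for 6, 5 and 4 in the 3 comparisons, beside 54.9%, 55.9% and 49.8% of all genes. Cdkn1b (p27) was at 52.3, 66.2 and 59.3 FPKM in AE+Meis2, at 46.7, 41.1 and 38.6 FPKM in AE9a+Meis2, with 44.8 and 47.8 FPKM for AE9a alone, so AE+Meis2 lay above the rest. Its difference was 0.48 ± 0.16 from AE9a+Meis2 (adjusted p = 0.63 by limma) and 0.34 ± 0.18 from AE9a. Cdkn2d (p19Ink4d) was at 73.9, 56.4 and 115 FPKM in AE+Meis2, at 73.3, 70.5 and 79.9 FPKM in AE9a+Meis2, while AE9a had 46.3 and 42.9 FPKM. Both AE9a libraries lay below the others, by 0.80 ± 0.29 for AE+Meis2 against AE9a and 0.73 ± 0.29 for AE9a+Meis2 against AE9a (adjusted p = 0.75 and 1 by limma).

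The 17 tested regulators of p53 and the 9 tested cyclins, CDKs and E2f1 of the G1 phase gave 0 calls. Of the regulators, 14 were above AE9a+Meis2 in AE+Meis2, 16 were above AE9a in AE+Meis2 and 9 were above AE9a in AE9a+Meis2. Of all genes, 54.9%, 55.9% and 49.8% were. The medians of the regulators were 0.18, 0.13 and 0.02, beside 0.04, 0.06 and -0.0011 over all genes. Mdm4, the Mdm2 relative that blocks p53 without degrading it, was at 43.2, 82.4 and 70.5 FPKM in AE+Meis2, at 47.2, 45.6 and 37.9 FPKM in AE9a+Meis2, with 37.1 and 46.8 FPKM for AE9a alone. AE+Meis2 replicates 2 and 3 stood above the other 6 libraries, and the difference was 0.53 ± 0.26 from AE9a+Meis2 and 0.59 ± 0.30 from AE9a (adjusted p = 0.73 and 0.92 by limma). Without the library labelled AE+Meis2 replicate 1 it was 0.80 and 0.86 (adjusted p = 0.36 and 0.34 by limma). The medians of the G1 list were 0.12, 0.05 and -0.09. Proliferation markers, 8 genes such as Mki67 all at 1 FPKM or more in every library, summed to 423, 284 and 507 FPKM in AE+Meis2, 297, 464 and 264.5 FPKM in AE9a+Meis2, while AE9a had 292 and 450 FPKM, so the groups overlapped.

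**Figure D5:**
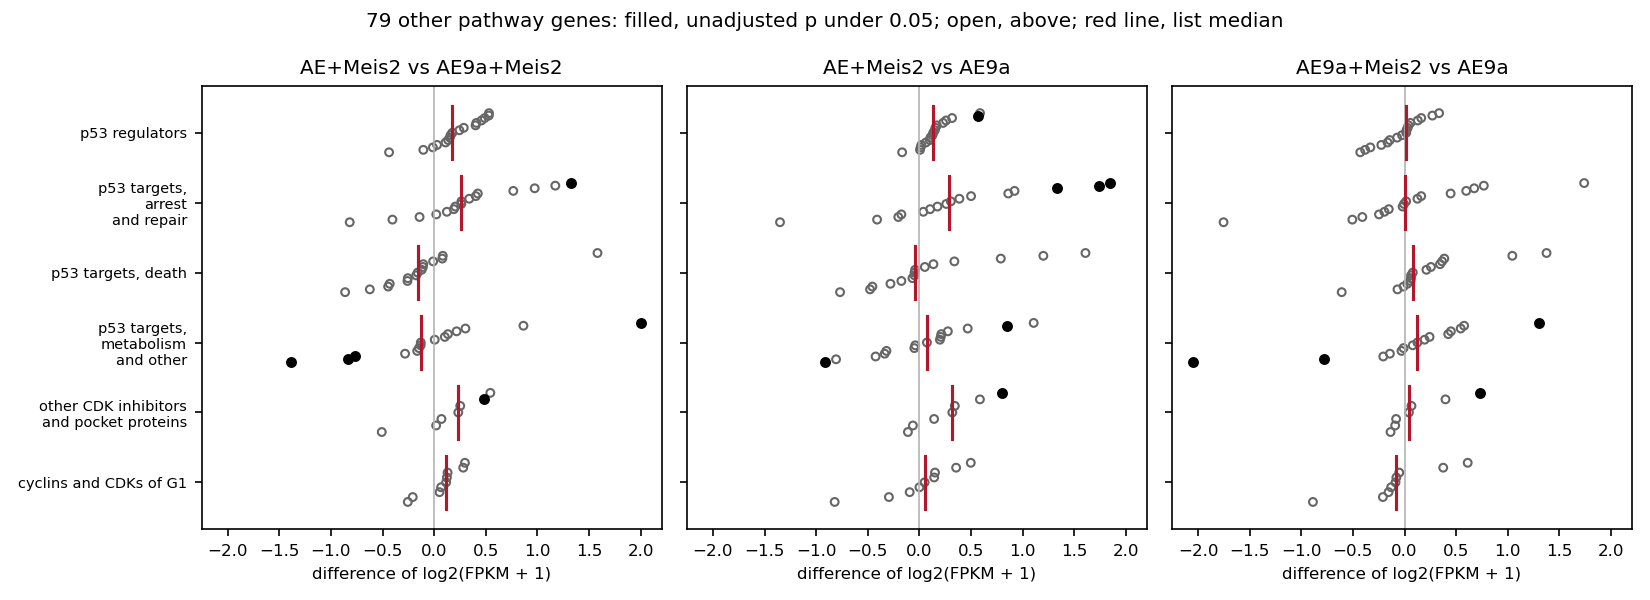
Differences of log2(FPKM + 1) for 79 other pathway genes in 6 lists (rows) and 3 comparisons (panels), the group named first minus the group named second; each point is a gene, filled where the unadjusted p is under 0.05, and the red line is the median of the list. The largest positive value in AE+Meis2 against AE9a+Meis2 and the largest negative one in AE9a+Meis2 against AE9a both belong to Pltp.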

How the data were processed

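RNA from whole leukemic marrow was prepared with TRIzol and a TruSeq RNA kit (version 2), per the labels' protocols. The authors deposited 1 table of FPKM for 23997 genes in 8 libraries. TopHat, Cufflinks and Cuffdiff with the mouse build mm10 were used, per the submitters' processing notes; the sources used here give no versions, annotation or scaling. The kit does not mark the strand. Columns were assigned to samples by their names in the labels, and no column was left over. Values were taken to log2(FPKM + 1). Genes with at least 1 FPKM in at least 2 libraries (12565) were tested with limma 3.58.1 in R 4.3.3, fitting all 8 libraries by group and moderating variances with a trend (prior df 2.28, residual df 5). The unit is FPKM, so no count model was run, and with depth unknown there are no counting intervals.

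The members and the pathway and marker lists were chosen with earlier results of these data known. Named genes are all 10 members, pathway genes from those with the smallest p of their list in a comparison (up to 3 per list) and the 3 genes most like Cdkn1a. Cdkn2b, Fas and Mdm4 are among the named genes. Not every pathway gene that met this rule is named. The fit was tried on simulated data. Of changes of 1 log2 unit only 2.5% to 8.75% passed the threshold, depending on the comparison. Of changes of 2 units 47.5% to 55% passed, and of changes of 4 units 82.5% to 92.5%. The fit was repeated with other pseudocounts, filters and scalings, with the replicate number as a block and without single libraries. Gene positions are from GENCODE M21 (GRCm38) and sequences from RefSeq (GRCm38.p6). Python 3.11.15 with matplotlib 3.10.9, NumPy 2.4.6 and pandas 2.3.3 made the tables and figures.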

Additional observations from a re-analysis of the deposited data

How the results depend on the processing

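Under 19 other settings of the test, 0 members passed the threshold in any comparison, the lowest adjusted p by limma being 0.16, for Cdkn1a in AE+Meis2 against AE9a+Meis2 without AE+Meis2 replicate 1. Of 27 member differences 12 kept their sign throughout and 15 turned at least once, none of these larger than 0.54 on the log2 scale to begin with. Without AE9a+Meis2 replicate 3 and AE9a replicate 1, both with values in silent genes, the sign turned in AE+Meis2 against AE9a for Trp53 (-0.46), in AE+Meis2 against AE9a+Meis2 for Phlda3 (0.30), and in AE9a+Meis2 against AE9a for Trp53 (-1.15), Ccng1 (-0.15) and Zmat3 (-0.21). Scaling by the 75th percentile turned Sesn2 in AE+Meis2 against AE9a (-0.070) and Cdkn2a in AE9a+Meis2 against AE9a (-0.028). With each library left out in turn, the differences whose sign turned ran over these ranges. In AE+Meis2 against AE9a they were Cdkn1a -1.23 to 0.034, Phlda3 -0.79 to 0.50, Sesn2 -0.093 to 0.21, Trp53 -0.46 to 1.54 and Zmat3 -0.68 to 0.21. In AE+Meis2 against AE9a+Meis2 they were Ccng1 -0.019 to 0.51, Mdm2 -0.0074 to 0.37, Phlda3 -0.68 to 0.61, Trp53inp1 -0.18 to 0.64 and Zmat3 -0.82 to 0.071. In AE9a+Meis2 against AE9a they were Ccng1 -0.17 to 0.37, Cdkn2a -0.21 to 0.29, Phlda3 -0.52 to 0.41, Trp53 -0.85 to 1.15 and Zmat3 -0.080 to 0.36. The replicate numbers did not pair the libraries: the 7 same-numbered pairs had correlations of their deviations from -0.03 to 0.13, and a library was closest to its own number in 8 of 14 cases. With the replicate number as a block, Sesn2 in AE+Meis2 against AE9a (-0.042) and Phlda3 in AE9a+Meis2 against AE9a (0.047) turned, 0 members passed, and the counts over all genes were 5, 0 and 2 in place of 5, 4 and 6, for AE+Meis2 against AE9a+Meis2, then AE+Meis2 against AE9a, then AE9a+Meis2 against AE9a. Over all 19 settings those counts ran from 0 to 23, 0 to 10 and 0 to 9, and were 0 in each once genes at 0 in a whole group, and small RNAs, were left out. The cause of these changes was not tested. A member that missed the threshold is not shown to be equal between groups.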

Other observations

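Perp, a p53 target of cell junctions that promotes death, stood apart in AE+Meis2 replicates 1 and 2. It was at 3.16, 12.4 and 0.229 FPKM in AE+Meis2, at 0.111, 0.402 and 0.639 FPKM in AE9a+Meis2, while AE9a had 0.227 and 0.468 FPKM. The 5 markers of megakaryocytes, the platelet precursors, of which 2 to 4 reached 1 FPKM in each library, summed to 94.5, 350 and 13.4 FPKM in AE+Meis2, to 12.4, 11.7 and 16.4 FPKM in AE9a+Meis2, then to 17.1 and 23.5 FPKM in AE9a. The libraries labelled AE+Meis2 replicates 1 and 2 were highest for both. Without replicate 1 a single library had at least 1 FPKM of Perp, which then did not pass the filter. The part of megakaryocytes in the Perp values was not tested.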
